A study of Homo sapiens with 6 samples.

Results

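The HOX clusters were examined in 3 libraries with knockdown of GOMAFU and 3 control libraries of BE(2)-M17, a human neuroblastoma line kept in culture. GOMAFU is a long non-coding RNA retained in the nucleus and is listed under the symbol MIAT. The members were every gene whose symbol places it in the HOXA, HOXB, HOXC or HOXD cluster, antisense (AS) transcripts included, together with the non-coding transcripts HOTAIR and HOTAIRM1. They numbered 53 of the 26372 genes in the deposited table, and comprised all 39 HOX genes and 14 other transcripts of the clusters. All libraries were made from polyadenylated RNA of this 1 line, and the replicate numbers were 2, 3 and 4 in both groups. For all libraries, control ones included, the labels' protocols describe transfection of 100 pmol of siRNA or another small RNA. Which molecule control cells received, which sequence produced the knockdown, and whether replicates were separate cultures is not stated by the labels. The p-values therefore rest on a spread between libraries that may be technical.

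HOX genes encode transcription factors that bind DNA through a homeodomain and give cells their position along the head-to-tail axis. The genes lie in clusters on separate chromosomes, and their order on the chromosome follows the order of their expression domains, with low numbers active towards the head and high numbers towards the tail. Genes of the same number in different clusters are paralogs, descended from a common ancestral gene. Polycomb complexes keep unused clusters silent, while MLL complexes and retinoic acid signalling are known to open them. Neuroblastoma arises in the sympathetic lineage of the trunk neural crest.

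MIAT was at 1.27, 1.32 and 3.21 FPKM in knockdown replicates 2, 3 and 4, against 5.38, 5.96 and 8.57 FPKM in control replicates 2, 3 and 4. FPKM counts fragments per gene, corrected for the gene's length and the library's size. All knockdown values lay below all control values, with a knockdown mean at 29.2% of the control mean and the smallest exact permutation p that 3 against 3 allows (two-sided p = 0.1). The summed FPKM were 579365 to 619208 in the knockdown libraries and 611348 to 637153 in the control libraries. Read depth is not given. Depth relative to control replicate 3 was estimated, across genes of very low mean, from the commonest ratio of its values to another library's. The estimate was 1.07, 1.36 and 1.06 in knockdown replicates 2, 3 and 4, and 1.10 and 0.972 in control replicates 2 and 4. Knockdown replicate 4 stood apart from the rest: across tested genes it correlated with the other 5 libraries at r = 0.940 to 0.956, while those correlated with one another at 0.983 to 0.997. The label of a neuroblastoma line was set against 13 adrenergic markers, of which 11 averaged at least 1 FPKM. HAND2, PHOX2A, GATA3, DBH and MYCN were among them, but TH, usually taken as a defining marker, stayed under 0.1 FPKM in every library.

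The expressed members lay in only 2 of the 4 clusters. With expressed taken as averaging 1 FPKM or more across all libraries, 10 of the 39 HOX genes and 1 of the 14 other transcripts were expressed. All 10 genes belonged to HOXC on chromosome 12 (5 of 9 genes) or HOXD on chromosome 2 (5 of 9 genes), and the other expressed transcript was HOXD-AS2. Another 7 members were above 0 in at least 1 library but averaged less than 1 FPKM, and 35 were listed at 0 in all 6 libraries (66.0% of the members, against 29.2% of all genes in the table). A value of 0 in a table without counts can be a failed estimate; here 0 of 13 housekeeping genes were at 0 in any library, with TBP the lowest at 8.69 FPKM.

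**Figure D1:**
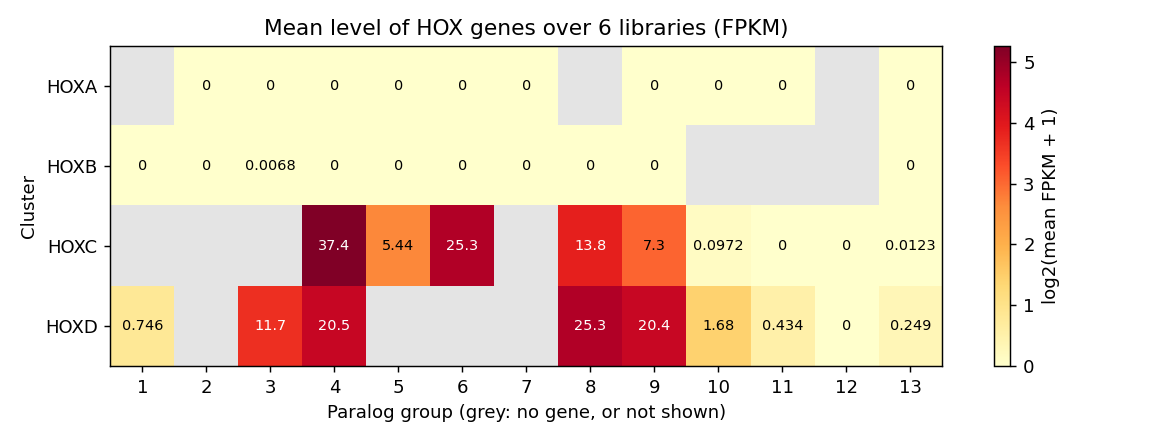
Mean FPKM over the 6 libraries of HOX genes, with clusters in rows, paralog groups in columns, and colour on a log2(mean FPKM + 1) scale (grey where there is no gene or none is shown). The HOXA and HOXB rows are at or near 0, and the levels in HOXC and HOXD run up to 37.4 FPKM in HOXC4.

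Sequences around the start sites are given because expressed and silent members sit side by side in the same cluster. RefSeq promoters (250 bases before to 50 after the start, GRCh38.p14) were matched by symbol for 27 of the 53 members. Those shown are from the most abundant HOX gene with a match, HOXC4 (chr12:54016638-54016937, plus strand; RefSeq gives HOXC5 the same start and promoter), from 3 expressed HOXD transcripts, namely HOXD8 (chr2:176129455-176129754, plus strand), HOXD4 (chr2:176151300-176151599, plus strand) and HOXD-AS2 (chr2:176137049-176137348, minus strand), and from HOXD12 (chr2:176099545-176099844, plus strand), a silent gene of the same cluster. Capitals mark the CCAAT motif on either strand (ATTGG on the other).
HOXC4: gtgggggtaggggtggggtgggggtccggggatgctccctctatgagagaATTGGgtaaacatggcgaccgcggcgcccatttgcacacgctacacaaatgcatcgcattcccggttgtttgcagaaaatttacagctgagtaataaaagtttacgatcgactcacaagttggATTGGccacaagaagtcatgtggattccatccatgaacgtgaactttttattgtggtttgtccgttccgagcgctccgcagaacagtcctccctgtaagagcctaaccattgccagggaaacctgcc
HOXD8: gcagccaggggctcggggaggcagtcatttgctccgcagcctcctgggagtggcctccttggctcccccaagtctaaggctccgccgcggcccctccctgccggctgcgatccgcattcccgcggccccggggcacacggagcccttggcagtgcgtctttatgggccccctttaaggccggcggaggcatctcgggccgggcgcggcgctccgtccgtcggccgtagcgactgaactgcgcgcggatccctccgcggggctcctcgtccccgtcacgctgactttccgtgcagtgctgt
HOXD4: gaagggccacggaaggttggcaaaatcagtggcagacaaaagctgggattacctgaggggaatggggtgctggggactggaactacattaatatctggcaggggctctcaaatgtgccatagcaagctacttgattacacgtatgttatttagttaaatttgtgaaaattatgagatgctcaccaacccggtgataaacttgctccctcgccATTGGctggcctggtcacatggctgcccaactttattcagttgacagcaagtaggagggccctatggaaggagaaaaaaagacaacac
HOXD-AS2: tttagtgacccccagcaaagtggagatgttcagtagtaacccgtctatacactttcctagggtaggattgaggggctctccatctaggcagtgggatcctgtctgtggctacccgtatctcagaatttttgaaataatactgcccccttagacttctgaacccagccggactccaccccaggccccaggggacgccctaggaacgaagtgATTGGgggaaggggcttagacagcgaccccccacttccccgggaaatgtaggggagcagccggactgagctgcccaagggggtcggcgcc
HOXD12: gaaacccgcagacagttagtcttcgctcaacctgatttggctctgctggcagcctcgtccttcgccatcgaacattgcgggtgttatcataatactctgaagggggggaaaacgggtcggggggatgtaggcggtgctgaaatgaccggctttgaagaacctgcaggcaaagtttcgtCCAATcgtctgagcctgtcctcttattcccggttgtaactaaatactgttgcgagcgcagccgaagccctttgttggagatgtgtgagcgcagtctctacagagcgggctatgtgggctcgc
The motifs searched on both strands were CCAAT, a composite site of HOX and PBX proteins written TGATTNAT, and the letters TATAAA of a common core promoter element. CCAAT was found in 6 of 7 promoters of expressed members (HOXC4 and HOXC5 counted each, though they share it; HOXD8 had none) and in 15 of 27 promoters of members below 1 FPKM, against 34.6% of the 35116 promoters in the table. TATAAA was in 0 of 7 and 5 of 27, against 11.5% of all, and TGATTNAT in 0 of 7 and 2 of 27, against 2.82% of all. The 27 promoters of members below 1 FPKM came from only 20 genes. HOXA3 had the most, and most of its promoters lacked CCAAT, so these shares are per promoter and not per gene. The number of CG dinucleotides was 34 in HOXD8, 15 in HOXC4, 10 in HOXD-AS2 and 4 in HOXD4, and 19 in the silent HOXD12. The median was 15 for expressed members, 15 for members below 1 FPKM and 14 for all promoters, so the medians did not separate these sets. Most promoters of members below 1 FPKM came from HOXA. Only those of HOXD1, HOXD11, HOXD12 and HOXD13 came from a cluster with expressed members. The expressed HOXC6, HOXC8, HOXC9 and HOXD9 had no match. The motif shares and medians therefore compare largely different clusters, not neighbours within 1 cluster.

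The HOXA cluster on chromosome 7 was silent throughout. All 17 members, 11 HOX genes and 6 other transcripts, were listed at 0 in every library. Among them was HOTAIRM1, a non-coding transcript best known from myeloid cells. The HOXB cluster on chromosome 17 was at 0 for 11 of 12 members. The exception was HOXB3, with 0.0406 FPKM in knockdown replicate 3 and 0 elsewhere.

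HOXC was expressed at its low-numbered end and silent at the other. HOXC4, HOXC5, HOXC6, HOXC8 and HOXC9 averaged 37.4, 5.44, 25.3, 13.8 and 7.30 FPKM over the 6 libraries. HOXC10, a gene of the lumbar and hindlimb region, averaged 0.0972 FPKM, so the level dropped 75.1-fold between HOXC9 and HOXC10, whose RefSeq spans are 9.88 kb apart. HOXC11 and HOXC12 were listed at 0, and HOXC13, a gene of hair and nail formation, was at 0.0212 FPKM in knockdown replicate 3 and 0.0525 FPKM in control replicate 2 and at 0 in the other 4 libraries. HOTAIR, which is transcribed antisense to HOXC11 and is reported to act on the HOXD cluster, was at 0 in all 6, as were HOXC-AS2, HOXC-AS3 and HOXC13-AS.

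The values of HOXC10 fell on a few discrete levels. They were 0.0673, 0.0533 and 0.0681 FPKM in knockdown replicates 2, 3 and 4, and 0.0660, 0.217 and 0.112 FPKM in control replicates 2, 3 and 4. Scaled by relative depth, the values of knockdown replicates 2, 3 and 4 and of control replicate 2 were nearly equal. With their mean set to 1, control replicates 3 and 4 came to 3 and 1.5. The value of 1.5 means that this unit is not the smallest step, so the number of fragments behind it is not known.

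HOXD was highest in its middle and fell off at both ends. HOXD3, HOXD4, HOXD8 and HOXD9 averaged 11.7, 20.5, 25.3 and 20.4 FPKM over the 6 libraries. HOXD10 averaged 1.68 FPKM, 12.1-fold below HOXD9 across a gap of 2.78 kb, and HOXD11 0.434 FPKM. HOXD12 was at 0, and HOXD13, a gene of digit and genital development, averaged 0.249 FPKM and was above 0 in all 6 libraries. At the other end HOXD1, known in mouse from sensory neurons, averaged 0.746 FPKM. HAGLR, a non-coding transcript that starts beside HOXD1 on the opposite strand and is no member by symbol, was at 12.7 ± 0.94 FPKM in knockdown libraries and 12.8 ± 0.06 FPKM in control libraries (SD, n = 3 each). HAGLROS, which lies within the GENCODE 29 span of HAGLR on the opposite strand, was at 0.926 ± 0.423 and 0.859 ± 0.058 FPKM in knockdown and control libraries.

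**Figure D2:**
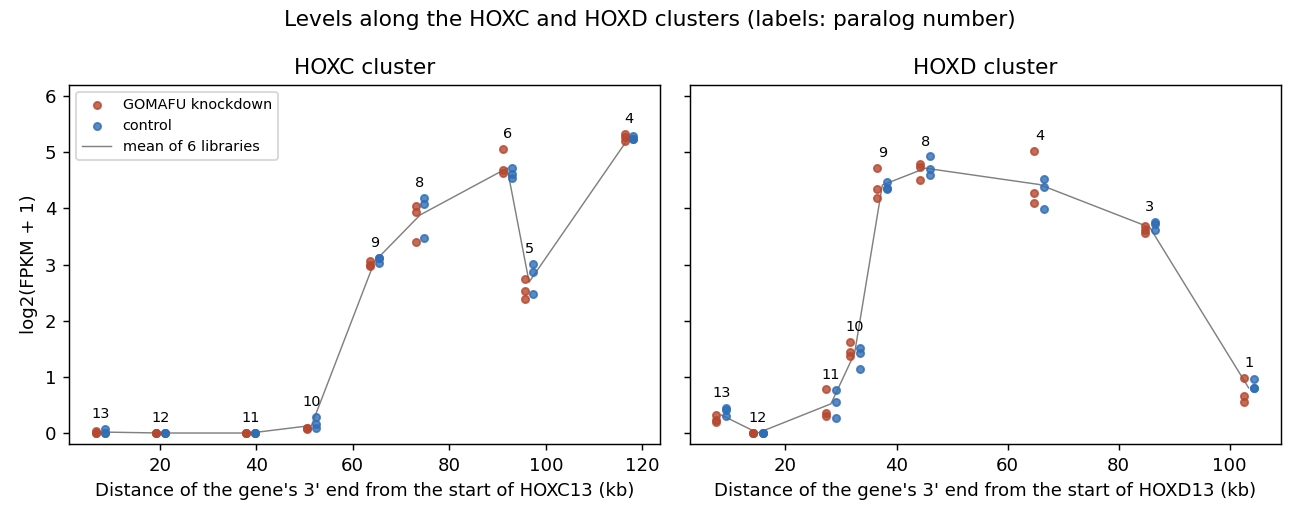
Levels along HOXC and HOXD: log2(FPKM + 1) of each HOX gene in each library against the distance in kb of its 3′ end from the start of HOXC13 or HOXD13 (RefSeq spans). Points are libraries (knockdown drawn just left of control) and the line joins means of 6. HOXC rises between genes 10 and 9, while HOXD peaks at genes 8, 9 and 4 and is low at 1 and at 11 to 13.

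By paralog group, HOX4 genes gave 34.0% of the summed HOX mRNA level (mean FPKM added over genes), HOX8 genes 22.9%, HOX9 genes 16.2%, HOX6 genes 14.9% and HOX3 genes 6.85%. Groups 2, 7 and 12 were at 0, and groups 11 and 13 together with group 1 each gave under 0.5%. In groups 4, 8 and 9 both the HOXC and the HOXD paralog were expressed, while the HOXA and HOXB paralogs that exist were at 0. Reads shared between paralogs could be split by the counting, and how the authors' annotation treated them is not given in the sources used here.

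In order of level, HOXC4 (35.7 to 39.3 FPKM) lay above every other member in all 6 libraries without overlap, and above 80.7% of tested genes in its mean. HOXC6 and HOXD8 were next with means of 25.3 FPKM each and ranges of 22.2 to 32.4 and 21.8 to 29.4 FPKM, and did not differ beyond their spread. HOXD4 and HOXD9, at 20.5 and 20.4 FPKM, overlapped as well, as did HOXC8 (13.8), HOXD-AS2 (13.05) and HOXD3 (11.7). HOXC9 was above HOXC5 in all 6 libraries, though their ranges overlapped. HOXD10 came last, with no overlap with HOXC5. RefSeq gives HOXC4, HOXC5 and HOXC6 a common start at position 54016888 of chromosome 12, and GENCODE 29 has HOXC6 overlapping HOXC4, HOXC8 and HOXC9, so the division of fragments among these genes is uncertain. HOXD3 and HOXD4 overlap in the same way.

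Summed HOX expression overlapped between groups. The summed FPKM of the HOXC genes was 86.6, 89.6 and 93.0 in knockdown replicates 2, 3 and 4, and 90.8, 91.2 and 84.7 in control replicates 2, 3 and 4. That of the HOXD genes was 71.6, 75.4 and 98.1 in knockdown replicates 2, 3 and 4, and 73.1, 78.5 and 88.7 in control replicates 2, 3 and 4. The ratio of knockdown to control means was 1.01 for HOXC and 1.02 for HOXD. In such bulk libraries, fewer expressing cells and less RNA per cell cannot be told apart.

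The 11 expressed members were tested with all 12164 genes above the same level cutoff, by limma on log2(FPKM + 1), knockdown minus control, with Benjamini-Hochberg adjustment over all tested genes. The share of tested genes past an adjusted p of 0.05 was 0%, and 0 of the 11 members passed. At an unadjusted p under 0.05 there were 1 member, HOXD-AS2, and 2.16% of all tested genes (118 higher and 145 lower). The median log2 difference of the members was 0.013 (6 above 0 and 5 below), beside -0.0081 over all tested genes. All knockdown values lay above all control values for 1 of 11 members, beside 4.01% of tested genes, and below them for 0 of 11, beside 4.35%. In either direction the groups were apart for 1 of 11 members, beside 8.36% of tested genes.

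HOXD-AS2, a long non-coding RNA transcribed against the direction of the HOXD genes, had the largest difference among the 11 tested members. It was at 15.1, 13.8 and 17.4 FPKM in knockdown replicates 2, 3 and 4, against 9.24, 12.5 and 10.2 FPKM in control replicates 2, 3 and 4. Each knockdown library was above each control library. The means were 15.4 ± 1.84 FPKM in knockdown libraries and 10.7 ± 1.66 FPKM in control libraries (SD, n = 3 each), a ratio of 1.45. The log2 difference was 0.50 (SE 0.13), with a 95% interval for this gene alone of 0.19 to 0.81. It ranked 17 of 12164 genes by unadjusted p and did not pass after adjustment (limma adjusted p = 0.9998). Without both libraries numbered 4 the log2 difference was 0.39 (limma adjusted p = 0.714), and with library weights it was 0.29 (limma adjusted p = 0.118), more than 1.5 times smaller.

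The RefSeq span of HOXD-AS2 runs from 176134841 to 176137098 on chromosome 2, just beyond HOXD8. GENCODE 29 gives it a longer span, from 176121611 to 176137098 on the minus strand, which crosses HOXD9 and HOXD8 and reaches into HOXD3. Whether strand was counted is not stated, so reads from HOXD-AS2 and from these genes may not be told apart. Relative to HOXD8, HOXD-AS2 had ratios of 0.695, 0.535 and 0.654 in knockdown replicates 2, 3 and 4, compared with ratios of 0.397, 0.4999 and 0.348 in control replicates 2, 3 and 4. The groups did not overlap. The ratio to HOXD9 was 0.762 ± 0.108 in knockdown libraries and 0.531 ± 0.097 in control libraries, and that to HOXD3 was 1.36 ± 0.096 in knockdown libraries and 0.896 ± 0.192 in control libraries (SD, n = 3 each). For each of these 3 ratios and for the ratio of HOXC-AS1 to HOXC9, the exact two-sided permutation test gave p = 0.1, the smallest possible (0.1 after adjustment over the 4 ratios). The groups were already apart in HOXD-AS2 and HOXC-AS1 themselves and overlapped in their partners. The ratios therefore largely restate that separation and add no separate evidence, and 3 of them share the same numerator.

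HOXC-AS1, an antisense transcript at the HOXC9 locus, was the other member whose groups did not overlap. It averaged under 1 FPKM and was therefore not among the tested genes. Its values were 0.191, 0.760 and 0.586 FPKM in knockdown replicates 2, 3 and 4, against 0.933, 0.831 and 1.28 FPKM in control replicates 2, 3 and 4. The means were 0.512 ± 0.292 FPKM in knockdown libraries and 1.01 ± 0.236 FPKM in control libraries (SD, n = 3 each). With no filter on low values its log2 difference was -0.43 (SE 0.16, limma adjusted p = 0.99998). Its partner HOXC9, reported to drive differentiation of neuroblastoma cells, was at 6.99, 6.88 and 7.39 FPKM in knockdown replicates 2, 3 and 4, and 7.68, 7.19 and 7.69 FPKM in control replicates 2, 3 and 4. The HOXC9 groups overlapped, and the log2 difference was -0.075 (SE 0.075).

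**Figure D3:**
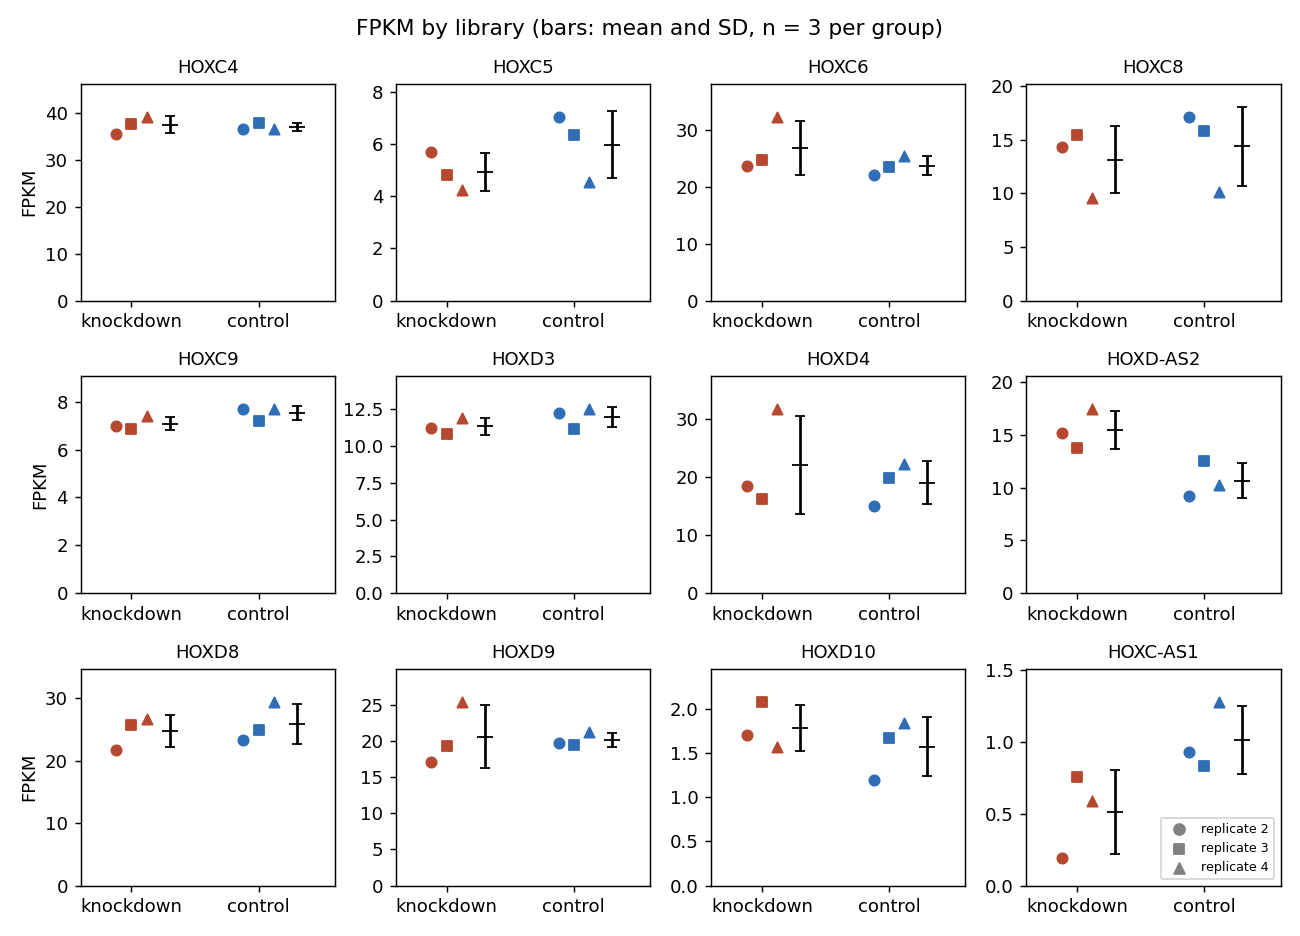
FPKM of the 11 expressed members and of HOXC-AS1 in each library, knockdown left and control right, with marker shape giving the replicate number and black bars the mean and SD (n = 3 per group). The groups are apart in HOXD-AS2 (13.8 to 17.4 against 9.24 to 12.5 FPKM) and HOXC-AS1 (0.191 to 0.760 against 0.831 to 1.28 FPKM), and overlap in the other panels.

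Among the low-numbered genes, HOXC4, which acts in the neck and upper trunk in mouse, was at 35.7, 37.7 and 39.3 FPKM in knockdown replicates 2, 3 and 4, and 36.6, 38.0 and 36.7 FPKM in control replicates 2, 3 and 4. It was the steadiest of the 11 expressed members, with a coefficient of variation of 3.39% over the 6 libraries; 4.62% of the genes within 2-fold of its level varied less. HOXD3, active in the upper spine, was at 11.2, 10.8 and 11.9 FPKM in knockdown replicates 2, 3 and 4, and 12.2, 11.2 and 12.5 FPKM in control replicates 2, 3 and 4. Both pairs of groups overlapped, with log2 differences of 0.016 (SE 0.069) for HOXC4 and -0.073 (SE 0.078) for HOXD3. Without knockdown replicate 4 that of HOXC4 was -0.016.

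HOXD4, the hindbrain and neck paralog of HOXC4, was the most variable of the 11 expressed members. It was at 18.3, 16.1 and 31.6 FPKM in knockdown replicates 2, 3 and 4, and 14.9, 19.8 and 22.1 FPKM in control replicates 2, 3 and 4. Its coefficient of variation was 29.4%, larger than that of 96.5% of genes within 2-fold of its level. Knockdown replicate 4 was the highest library, and the groups overlapped (log2 difference 0.17, SE 0.26). Without knockdown replicate 4 the difference was -0.11, and without control replicate 2 it was 0.011.

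HOXC5 and HOXC6, genes of the forelimb and upper trunk region, ordered the libraries differently. HOXC5 was at 5.70, 4.80 and 4.25 FPKM in knockdown replicates 2, 3 and 4, and 7.04, 6.32 and 4.56 FPKM in control replicates 2, 3 and 4. HOXC6 was at 23.7, 24.7 and 32.4 FPKM in knockdown replicates 2, 3 and 4, and 22.2, 23.6 and 25.5 FPKM in control replicates 2, 3 and 4. HOXC5 was lowest and HOXC6 highest in the libraries numbered 4 of each group, and the knockdown and control ranges overlapped for both. The log2 differences were -0.23 (SE 0.16) for HOXC5 and 0.16 (SE 0.13) for HOXC6. That of HOXC5 was -0.14 without knockdown replicate 4, -0.12 without control replicate 2 and -0.38 without control replicate 4. That of HOXC6 was 0.030 without knockdown replicate 4.

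HOXC8, which acts in trunk patterning in mouse, was lowest in the libraries numbered 4. It was at 14.4, 15.4 and 9.59 FPKM in knockdown replicates 2, 3 and 4, and 17.2, 15.8 and 10.2 FPKM in control replicates 2, 3 and 4. The group ranges overlapped, and the log2 difference of the groups was -0.12 (SE 0.23; 95% interval -0.66 to 0.43). Without knockdown replicate 4 it was 0.079. Its HOXD paralog HOXD8 was highest in the libraries numbered 4, with 21.8, 25.8 and 26.6 FPKM in knockdown replicates 2, 3 and 4, and 23.3, 25.0 and 29.4 FPKM in control replicates 2, 3 and 4 (log2 difference -0.063, SE 0.12).

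Towards the tail end, HOXD9, which acts in limb and lower trunk in mouse, was at 17.1, 19.3 and 25.4 FPKM in knockdown replicates 2, 3 and 4, and 19.7, 19.4 and 21.3 FPKM in control replicates 2, 3 and 4. HOXD10, known from lumbar motor neurons in mouse, was at 1.70, 2.08 and 1.57 FPKM in knockdown replicates 2, 3 and 4, and 1.20, 1.67 and 1.84 FPKM in control replicates 2, 3 and 4. Both overlapped between groups, with log2 differences of 0.013 (SE 0.14) for HOXD9 and 0.12 (SE 0.15) for HOXD10. Without knockdown replicate 4 that of HOXD9 was -0.14. That of HOXD10 was 0.046 without knockdown replicate 3, 0.011 without control replicate 2 and 0.20 without control replicate 4. The low members HOXD1, HOXD11 and HOXD13 also overlapped, at 0.672 ± 0.260, 0.412 ± 0.261 and 0.188 ± 0.056 FPKM in knockdown libraries and 0.821 ± 0.119, 0.455 ± 0.243 and 0.310 ± 0.066 FPKM in control libraries (SD, n = 3 each).

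**Figure D4:**
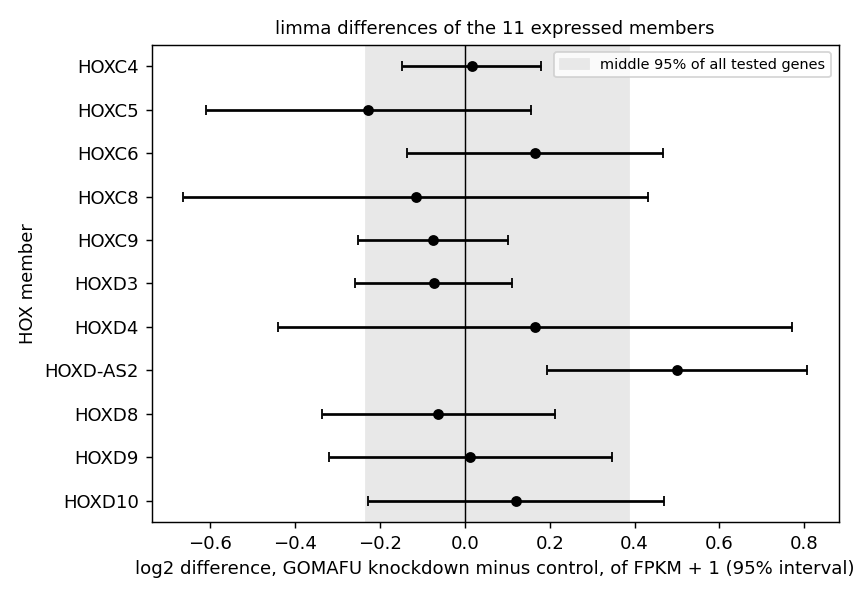
Fitted log2 difference of FPKM + 1, knockdown minus control, of the 11 expressed members with per-gene 95% intervals (limma, n = 3 each). The grey band holds the middle 95% of all 12164 tested genes (-0.23 to 0.39); HOXD-AS2 is the member outside it, and every other interval crosses 0.

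The members also differed between libraries of the same group. Knockdown replicate 4 held the highest or lowest value of 7 of the 11 expressed members, beside 58.8% of all tested genes, and control replicate 2 that of 6, beside 34.4%. In log2 FPKM relative to the member's own mean over the 6 libraries, HOXC8 was at -0.49 and -0.40 in knockdown and control replicate 4, and between 0.10 and 0.35 in the other 4 libraries. HOXC5 was at -0.33 and -0.23 in those 2 libraries. HOXD4 reached 0.67 in knockdown replicate 4 and 0.16 in control replicate 4.

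**Figure D5:**
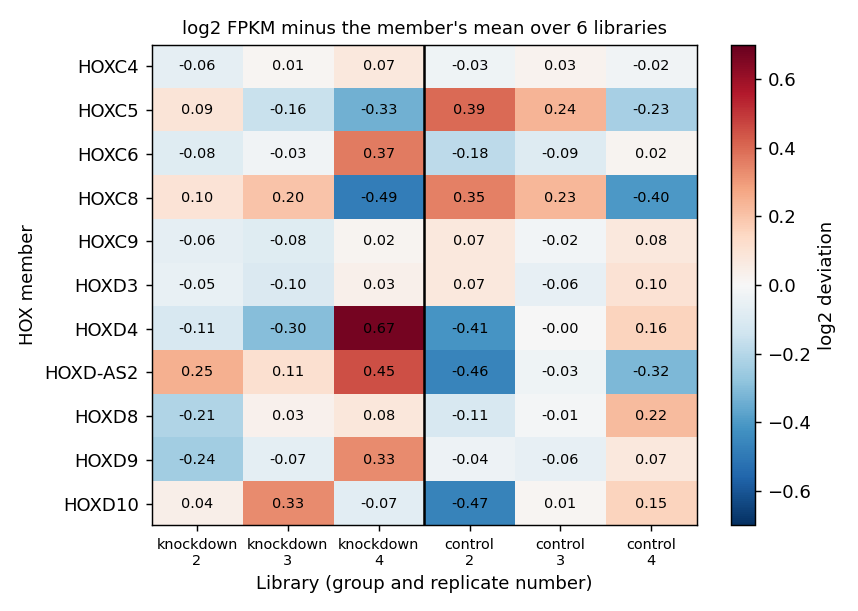
log2 FPKM of the 11 expressed members in each library minus the member's mean over the 6 libraries, knockdown columns left of the line and control columns right. HOXC8 and HOXC5 are below their mean in both libraries numbered 4, HOXD4 is above it there, and HOXC4, HOXC9 and HOXD3 stay within about 0.10 of it.

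The genes that work with HOX proteins or set the state of their clusters gave no call either. At an unadjusted p under 0.05 there was 1 gene in all the lists that follow. The TALE class holds the DNA-binding partners of HOX proteins. MEIS2 was at 88.1 ± 11.8 FPKM in knockdown libraries and 96.1 ± 13.5 FPKM in control libraries, PBX2 at 44.2 ± 7.05 and 37.9 ± 1.81, and PBX3 at 39.0 ± 8.70 and 42.5 ± 7.01 (SD, n = 3 each, knockdown before control). MEIS1 was at 9.94 ± 1.21 and 10.2 ± 1.13 FPKM, PKNOX1 at 10.97 ± 0.372 and 11.4 ± 1.20, and MEIS3 at 2.13 ± 0.803 and 1.79 ± 0.192 in knockdown and control libraries. PBX4 averaged 0.983 ± 0.319 and 0.657 ± 0.218 FPKM in knockdown and control libraries, and PKNOX2 did not exceed 0.05 FPKM. Of the 7 tested TALE genes 0 passed, 3 were fitted above 0 and 4 below, with a median log2 difference of -0.031.

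Polycomb genes, which keep HOX clusters silent, were expressed in 27 of 28 cases, and 0 passed. Their median log2 difference was -0.0019, and 11 were fitted above 0 and 16 below. All knockdown values lay above all control values for 2 of the 27, EED among them, beside 4.01% of all tested genes. They lay below for 1, CBX6, beside 4.35%. RBBP7, PHF19 and PCGF2 were the most abundant, with log2 differences of -0.11, -0.048 and -0.054. Of 14 genes of the MLL complexes and the H3K27 demethylases, 0 passed, and the median was 0.081 (11 above 0 and 3 below), beside -0.0081 over all tested genes. KMT2B and WDR5, 2 of the 14, had all knockdown values above all control values, beside 4.01% of all tested genes. Their log2 differences were 0.12 (SE 0.070) and 0.11 (SE 0.072), and those of PSIP1 and DPY30 were -0.053 and -0.10.

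In the retinoic acid pathway 10 of 17 genes were tested and 0 passed, with a median log2 difference of -0.015. CRABP2, which carries retinoic acid to its nuclear receptors, was at 746 ± 98.4 FPKM in knockdown libraries and 721 ± 134 FPKM in control libraries (SD, n = 3 each). STRA6, the retinol uptake receptor, was lowest in the libraries numbered 4, as HOXC8 was, with 79.4, 80.2 and 26.3 FPKM in knockdown replicates 2, 3 and 4, and 79.3, 73.6 and 30.0 FPKM in control replicates 2, 3 and 4. CYP26A1, CYP26B1 and CYP26C1, enzymes that degrade retinoic acid, averaged under 0.1 FPKM. Of the caudal and ParaHox genes, which share ancestry with the clusters, CDX1 was at 0.537 ± 0.059 and 0.428 ± 0.218 FPKM in knockdown and control libraries (SD, n = 3 each), and the other 5 of 6 were listed at 0.

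Genes just outside the clusters were set beside them. Of 18 such genes 11 were tested and 0 passed, with a median log2 difference of -0.031. HNRNPA1 and CBX5, on the far side of HOXC4, were at 1431 ± 75.7 and 41.8 ± 2.64 FPKM in knockdown libraries and 1616 ± 128 and 42.8 ± 3.17 FPKM in control libraries, and ATP5MC2 was at 453 ± 24.3 and 481 ± 23.8 FPKM in knockdown and control libraries (SD, n = 3 each). LNPK, near the HOXD13 end of HOXD, had the smallest p, with a log2 difference of -0.18 (SE 0.086). LNPK and HNRNPA1, 2 of the 11 tested, had all knockdown values below all control values, beside 4.35% of all tested genes. EVX1, the homeobox gene beside HOXA13, was at 0 in all libraries, and EVX2, beside HOXD13, did not exceed 0.05 FPKM. Among 10 further non-coding transcripts of the clusters only HAGLR reached a mean of 1 FPKM, and 8, HOTTIP and the microRNA genes included, were listed at 0.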

How the data were processed

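Polyadenylated RNA was sequenced from 6 libraries of BE(2)-M17 cells. The labels' protocols describe transfection of 100 pmol of siRNA or another small RNA, and reads of 150 bases from both ends of each fragment. The authors deposited FPKM values with 1 column per library; the submitters' processing notes name TopHat2, Cuffdiff and hg38. Their versions, annotation, filters and strand setting are unstated in the available sources. Depth in reads is unknown, and no count model was run.

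The 12164 genes averaging 1 FPKM or more were tested on log2(FPKM + 1), which understates changes of low genes, with limma 3.58.1 in R 4.3.3 (two-sided, intensity trend, no covariate, Benjamini-Hochberg over all tested genes, threshold 0.05). Single ratios were tested by exact permutation with scipy 1.17.1. The limma step was tested on simulated data. Alternatives were pseudocounts of 0.1 and 0.01, a level filter of 5 FPKM or none, upper-quartile and quantile scaling, no trend, library weights, a replicate block, each library left out, both libraries numbered 4 left out, and other cutoffs for expressed. Positions are those of RefSeq (GRCh38.p14) and GENCODE 29, on the hg38 build. The naming rule covered members averaging 1 FPKM or more, HOXD-AS2, HOTAIR, HOTAIRM1, the highest member below that level in each cluster (HOXB3, HOXC-AS1, HOXD1), MIAT, all TALE genes, and from each other list up to 3 genes by level and 1 by smallest p. Further low members and list genes were named after their values were seen. Members and lists were chosen with earlier results of these data known. Older symbols matched 3 list genes. Some genes that the rule covers are not reported here.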

Additional observations from a re-analysis of the deposited data

How the results depend on the processing

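The count of HOX members past the threshold was 0 under all 16 alternatives, and that of all tested genes was 0 except with library weights (22 genes) and without both libraries numbered 4 (1 gene, MIAT). At an unadjusted p under 0.05, library weights gave 1238 genes higher and 1616 lower, and the fit without them 118 higher and 145 lower. The number of expressed members was 11 with the cutoff of 1 FPKM, 13 at 0.5 FPKM, 10 at 5 FPKM and 11 with at least 1 FPKM in each library. Without 1 library each, the ratio of summed levels ranged from 0.986 to 1.03 for HOXC and from 0.918 to 1.08 for HOXD.

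The HOXD-AS2 difference kept its sign in all 16 alternatives, from 0.29 to 0.61, with limma adjusted p from 0.118 to 1. Small differences changed sign. With library weights HOXC4 was at -0.063, HOXD4 at -0.079 and HOXD9 at -0.13; without both libraries numbered 4 HOXC4 was at -0.024 and HOXD9 at -0.10; with quantile normalization HOXD9 was at -0.0018. Leaving out 1 library at a time, HOXC4 ran from -0.016 to 0.051, HOXC8 from -0.33 to 0.079, HOXD4 from -0.11 to 0.35, HOXD8 from -0.13 to 0.029 and HOXD9 from -0.14 to 0.13. Over the same settings the differences that kept their sign also varied in size, with HOXC5 from -0.38 to -0.12, HOXC6 from 0.03 to 0.25, HOXC9 from -0.10 to -0.056, HOXD3 from -0.12 to -0.044 and HOXD10 from 0.011 to 0.20; without both libraries numbered 4 HOXD10 was at 0.25. None of these passed the threshold, and the cause was not tested.

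With the replicate number as a block 0 genes and 0 members passed, and HOXD-AS2 was at 0.50 with a limma adjusted p of 0.894. The SE of HOXC8 fell from 0.23 to 0.077 and that of HOXC5 from 0.16 to 0.092, both with a limma adjusted p of 0.894. Deviations of same-numbered libraries correlated at 0.0920, 0.168 and 0.322 for numbers 2, 3 and 4. Knockdown replicates 2 and 3 correlated best with other numbers, so the numbers were not taken to pair the samples. Knockdown replicate 4 did correlate best with control replicate 4, against -0.260 and -0.213 with control replicates 2 and 3. For members under 1 FPKM, since depth in reads is unknown no counting interval can be given.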

Other observations

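Outside the HOX clusters, homeobox genes of the sympathetic lineage were the abundant ones. Of 20 homeobox genes of early neural and trunk tissue 6 averaged at least 1 FPKM. PHOX2A, a regulator of noradrenergic identity, was at 401 ± 60.4 FPKM in knockdown libraries and 417 ± 37.9 FPKM in control libraries, TLX2 at 93.1 ± 5.37 and 88.4 ± 10.4, and ISL1 at 42.0 ± 13.98 and 42.7 ± 8.25 (SD, n = 3 each, knockdown before control). DLX6, MSX2 and SIX3 were the other 3, and MSX2 had the smallest p, with a log2 difference of 0.18 (SE 0.16). Among genes of the forebrain and midbrain, SIX3 was at 10.2 ± 4.52 FPKM in knockdown libraries and 10.4 ± 3.27 FPKM in control libraries (SD, n = 3 each), and OTX2 and EN1 were listed at 0 in all libraries. None of the 6 passed the threshold by limma, and 2 were fitted above 0 and 4 below, with a median log2 difference of -0.042.

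Markers of other cell types were mostly low. Glial markers summed to 1.83 to 2.44 FPKM in knockdown libraries and 1.47 to 2.25 FPKM in control libraries, with FOXD3 at 0, and haematopoietic markers to 1.14 to 2.08 and 0.948 to 1.55 FPKM, with CD3E and MS4A1 at 0. Fibroblast markers summed to 93.9 to 105 FPKM in knockdown libraries and 80.9 to 101 FPKM in control libraries, nearly all of it DCN, PDGFRB and LUM, while COL1A2 was at 0. Mesenchymal neuroblastoma markers summed to 360 to 464 FPKM in knockdown libraries and 383 to 468 FPKM in control libraries, mostly VIM and TWIST1, with PRRX1 at 0. The adrenergic markers summed to 5576 to 6046 FPKM in knockdown libraries and 6462 to 6669 FPKM in control libraries, without overlap. The largest parts of this sum were MYCN, CHGA and STMN2, averaging 2002, 1526 and 898 FPKM over the 6 libraries. Of the 11 tested adrenergic markers, 2, CHGA and STMN2, had all knockdown values below all control values, beside 4.35% of all tested genes. MYCN overlapped between groups. CHGA, a granule protein, was at 1344 ± 113 FPKM in knockdown libraries and 1707 ± 66.2 FPKM in control libraries (SD, n = 3 each; log2 -0.35, SE 0.089), and did not pass by limma. The part of these markers in the HOX values was not tested.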
